A study of Mus musculus with 2 samples.

Results

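Endothelial cells, the cells that line blood and lymph vessels, were described in single-cell RNA data of the mouse submandibular gland, a major salivary gland. There were 2 libraries, each from adult glands at 12 weeks of age that were dissociated whole: 1 labelled p63 KO and 1 labelled p63 wild type (p63 WT). The labels do not say how, when or in which cells p63 was removed, or whether glands were pooled. Their source field names epithelial progenitor cells, while the protocol names the whole gland, and the barcodes described here carried endothelial RNA.

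A barcode tags 1 droplet and a UMI tags 1 captured molecule. Barcodes in which 200 or more genes were seen, and in which mitochondrial UMIs made up less than 20%, were kept. Endothelial barcodes were chosen by the UMIs measured here, as those with at least 3 of 7 genes detected (Pecam1, Cdh5, Kdr, Plvap, Flt1, Emcn and Egfl7) and no UMI of Ptprc, the gene of the pan-leukocyte antigen CD45. This rule took 330 of 2423 kept barcodes in the p63 KO library and 86 of 1663 in the p63 WT library, in all 416 of 4086. Of these, 15 of 330 p63 KO barcodes (4.55%) and 24 of 86 p63 WT barcodes (27.9%) had 3 or more UMIs of the basal keratins Krt14 and Krt17 together. They were set apart as likely doublets, that is, droplets with more than 1 cell. This left 315 p63 KO and 62 p63 WT barcodes with 735685 and 314461 UMIs, which all values below describe unless stated otherwise. Their median depth was 1644 UMIs in the p63 KO and 2825 in the p63 WT library. The libraries shared 11 barcode sequences, and 4 of them were endothelial barcodes by the rule in at least 1 library.

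Vessels of exocrine glands supply the water and nutrients from which saliva is made. Endothelial cells hold together through Cdh5 (VE-cadherin) and Pecam1, take up VEGF signals through the receptors Kdr and Flt1, and in fenestrated capillaries carry pores closed by diaphragms of the protein Plvap. Capillary, venous, arterial and lymphatic endothelial cells express partly different genes: capillary cells handle lipids and gas exchange, venules recruit leukocytes through selectins, arterial cells use Notch signalling and connexins, and lymphatic cells depend on Prox1.

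Each genotype had 1 library, so genotypes could not be tested against each other. Intervals are 95% intervals that cover counting error only, exact Poisson for levels and ratios of UMI counts and exact binomial for shares. Levels are CPM, the UMIs of a gene summed over a set of barcodes and scaled to the same total, and they are compared for the same gene between sets. Fewer cells of a type and different recovery of those cells from the tissue cannot be told apart here.

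**Figure D1:**
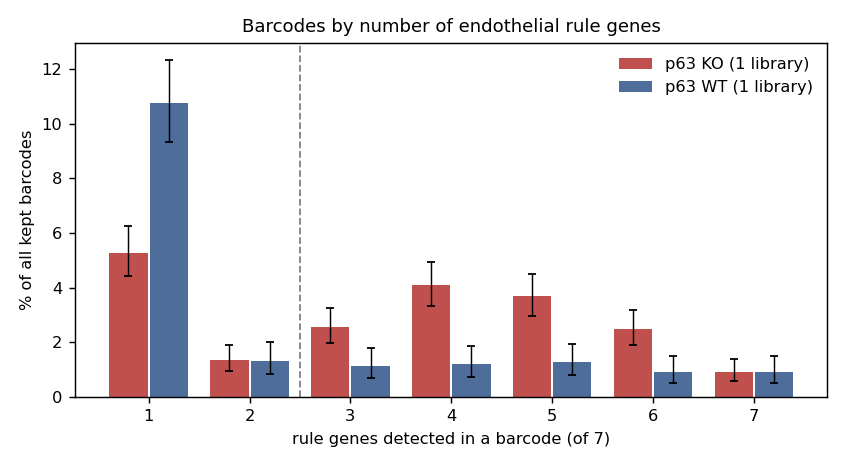
Share of all kept barcodes (y axis, in percent) with 1 to 7 of the 7 rule genes detected (x axis), in the p63 KO library (left bars) and the p63 WT library (right bars); error bars are 95% exact binomial intervals, and the dashed line marks the threshold of 3 genes. In the p63 KO library 4 genes (4.09%) were more frequent than 2 (1.36%), while the p63 WT shares lay between 0.902% and 1.32% from 2 genes upwards.

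The 7 genes chose the barcodes, so their values are a description. Plvap had 1202 UMIs in 274 of 315 p63 KO barcodes and 205 UMIs in 51 of 62 p63 WT barcodes, or 1634 and 652 CPM, against 14.8 and 9.85 CPM in the other kept barcodes of the same libraries. Flt1 stood at 1259 CPM in the p63 KO and 461 CPM in the p63 WT barcodes, Pecam1 at 722 and 356 CPM, and Egfl7, a secreted vessel factor, at 560 and 407 CPM. Emcn (endomucin), Cdh5 and Kdr were lowest of the 7, at 362, 328 and 302 CPM in the p63 KO and 267, 207 and 204 CPM in the p63 WT barcodes. A barcode held all 7 genes in 22 p63 KO and 15 p63 WT cases of all kept barcodes. At the threshold, among barcodes without Ptprc and not set apart, 55 p63 KO barcodes had exactly 3 rule genes and 26 had 2. Their 28 pan-endothelial genes outside the rule summed to 3251 CPM with 3 rule genes and 4682 CPM with 2, against 7174 CPM with 4 or more. In the p63 WT library, 13 barcodes with 3 rule genes had 624 CPM and 12 with 2 had 480 CPM, against 5532 CPM with 4 or more, and a median of 20.6% of the UMIs in those 13 barcodes came from acinar and granular tubule marker genes.

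Endothelial genes that the rule did not use were concentrated in these barcodes. Over all genes with at least 10 UMIs, 6.45% in the p63 KO and 3.03% in the p63 WT library had an interval wholly above 2-fold in endothelial over other kept barcodes. Of the pan-endothelial list, 26 of 27 measured genes in the p63 KO and 21 of 25 in the p63 WT library were beyond 2-fold, with median ratios of 38.5 and 53.5. Ptprb, a receptor phosphatase that regulates Tie2, reached 111-fold (75.4 to 169) in p63 KO and 80.6-fold (50.6 to 133) in p63 WT barcodes. Adgrl4, an adhesion receptor of endothelium, reached 97.1-fold (65.0 to 151) and 83.6-fold (40.5 to 189), and Esam, a junction molecule, 53.1-fold (38.5 to 74.7) and 66.7-fold (43.2 to 106). The list member with the lowest ratio in both libraries was Crip2, at 1.59-fold (1.40 to 1.81) in p63 KO and 1.82-fold (1.52 to 2.17) in p63 WT. Cldn5, a tight junction claudin often used to mark endothelium, was present in 25 of 315 p63 KO and 7 of 62 p63 WT barcodes.

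Capillary genes were the most abundant vessel class. Fabp4, a fatty acid-binding protein, had 1343 UMIs in 271 of 315 p63 KO barcodes and 424 UMIs in 57 of 62 p63 WT barcodes. Rgcc, a cell cycle regulator and capillary marker, had 1067 and 212 UMIs, and Gpihbp1, which anchors lipoprotein lipase on capillary walls, 493 and 68 UMIs. Car4, a membrane-bound carbonic anhydrase, had 142 UMIs in 101 p63 KO and 15 UMIs in 10 p63 WT barcodes, and stood 195-fold (87.5 to 541) and 51.2-fold (19.6 to 148) above the other kept barcodes. The fatty acid transporter Cd36 reached 33.7-fold (26.0 to 44.0) and 30.2-fold (20.4 to 44.9). In the other kept barcodes Fabp4 stood at 86.0 CPM in p63 KO and 28.9 CPM in p63 WT.

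**Figure D2:**
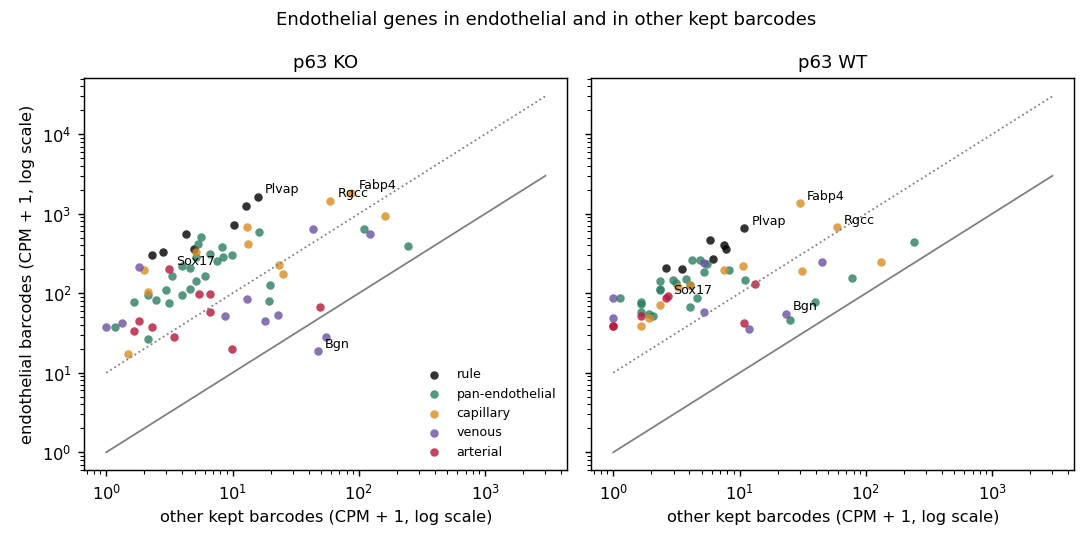
Each point is 1 gene of the rule or of the pan-endothelial, capillary, venous or arterial list (colours) with at least 10 UMIs, with its level in other kept barcodes on the x axis and in endothelial barcodes on the y axis (CPM + 1, log scales), p63 KO on the left and p63 WT on the right. The solid line marks equal levels and the dotted line a 10-fold difference; Plvap lies at 1634 CPM in p63 KO and 652 CPM in p63 WT endothelial barcodes, far above the solid line, while Bgn of the venous list lies at or below 54.1 CPM.

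Many endothelial barcodes also carried RNA of other cells, and the libraries differed in this. Haemoglobin and the acinar and granular tubule marker genes together took over 10% of the UMIs in 14 of 315 p63 KO barcodes (4.44%, interval 2.45 to 7.35%) and 27 of 62 p63 WT barcodes (43.5%, 31.0 to 56.7%). Those barcodes held 19.0% of the p63 KO and 69.3% of the p63 WT endothelial UMIs. Epcam, Krt8 and Krt18, genes of epithelium, had 3 or more UMIs together in 63 p63 KO (15.7 to 24.8%) and 24 p63 WT barcodes (26.6 to 51.9%). Barcodes of either kind are called mixed below: 72 in the p63 KO library and 40 in the p63 WT library, which left 243 and 22. Mucl2, an acinar secretory protein, alone took 39567 of the p63 KO and 77761 of the p63 WT UMIs, of which 22106 and 23066 lay in 1 barcode each.

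Markers of other cells were counted over whole lists. The 10 acinar genes summed to 82953 CPM in p63 KO and 301929 CPM in p63 WT endothelial barcodes, where all 62 barcodes had a UMI, and to 65791 and 179570 CPM in the other kept barcodes. The 5 red cell genes summed to 19201 and 68896 CPM, and the 10 granular tubule genes to 7409 and 7597 CPM. The 9 luminal epithelial genes summed to 2553 and 1256 CPM, with Krt19 at 0 in both libraries. Pericyte and smooth muscle genes stood at 171 and 289 CPM, fibroblast genes at 159 and 124 CPM with Col1a1 and Col3a1 at 0 in both, and macrophage genes at 106 and 188 CPM. The 7 lymphoid genes counted, without Trbc2 of that list, had 0 UMIs in 315 p63 KO and 1 UMI in 62 p63 WT barcodes. The exact interval for the p63 KO share of barcodes with a UMI was 0 to 1.16%. The rule had left out barcodes with Ptprc, so low leukocyte values were partly set by the choice of barcodes. Platelet, adipocyte and Schwann genes summed to 16.3, 264 and 6.80 CPM in the p63 KO barcodes, and to 3.18, 0 and 15.9 CPM in the p63 WT barcodes. Of the 194 adipocyte UMIs in p63 KO, 176 were of Cfd, and 167 of these lay in 1 barcode. The part of this RNA in each difference between the libraries was not tested, so values without mixed barcodes are given for the gene lists and for the genes the results turn on.

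**Figure D3:**
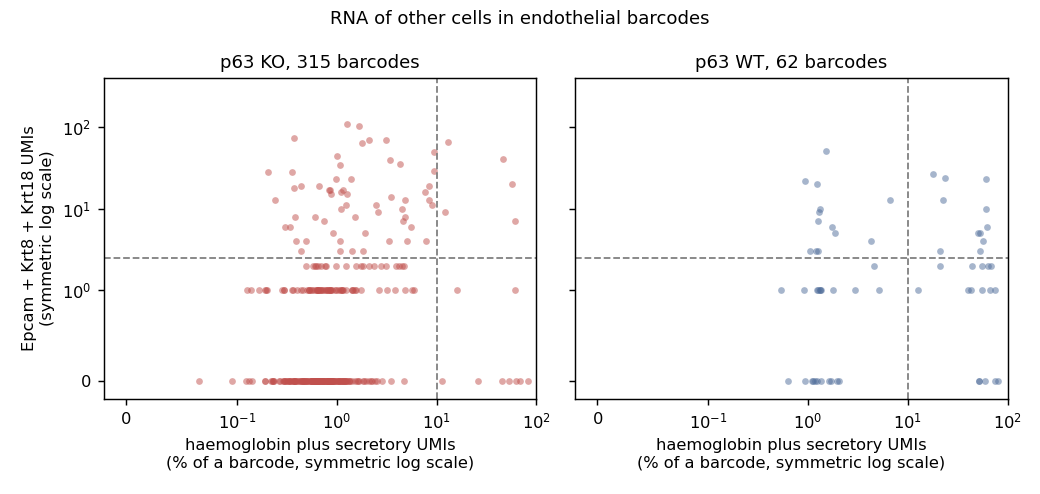
Each point is 1 endothelial barcode, with the share of its UMIs from haemoglobin, acinar and granular tubule marker genes on the x axis (percent, symmetric log scale) and its UMIs of Epcam, Krt8 and Krt18 on the y axis (symmetric log scale), p63 KO on the left and p63 WT on the right. Dashed lines mark 10% and 3 UMIs; 243 of 315 p63 KO and 22 of 62 p63 WT barcodes lie below both.

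The barcodes set apart for Krt14 and Krt17 were deeper, with medians of 4066 UMIs in the 15 p63 KO and 3952 UMIs in the 24 p63 WT barcodes. They carried both programmes: the pan-endothelial list summed to 2278 CPM in p63 KO and 2339 CPM in p63 WT, against 487 and 437 CPM in other kept barcodes, and the median barcode had 7 of its 28 genes in either library. Krt14 and Krt17 had a median of 9 UMIs together in p63 KO and 11.5 UMIs in p63 WT. Krt5, Krt15 and Trp63 were at 0 in the p63 KO barcodes set apart, and all 5 basal duct genes were present in the p63 WT ones. The acinar list stood at 6715 and 11168 CPM there, lower than in the endothelial barcodes that were not set apart.

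Endothelial barcodes made up 13.0% (11.7 to 14.4%) of kept p63 KO and 3.73% (2.87 to 4.75%) of kept p63 WT barcodes. The 2 intervals do not overlap, but they cover counting error in 1 library each. With the barcodes set apart kept in, the shares were 13.6% (12.3 to 15.1%) and 5.17% (4.16 to 6.35%). Without mixed barcodes they were 10.0% and 1.32%. The share in the p63 KO library was the larger one under each change of the rule, filters and depth that was run. The deposited barcodes had at least 1076 UMIs in p63 KO and 2175 in p63 WT, and no change set these equal. The median p63 KO endothelial barcode, at 1644 UMIs, lay below the p63 WT minimum. Thinning could not bring back p63 WT barcodes under that minimum. The filters kept different parts of the libraries: 2423 of 4726 p63 KO and 1663 of 1970 p63 WT barcodes were kept, and over all deposited barcodes the shares were 7.24% and 3.65%.

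Next, endothelial barcodes were divided by vessel class, from lists that hold no rule gene; a barcode took a class with at least 2 markers of its list and more than of any other. The capillary class held 265 of 315 p63 KO barcodes (84.1%, 79.6 to 88.0%) and 50 of 62 p63 WT barcodes (80.6%, 68.6 to 89.6%). The venous class held 23 p63 KO (7.30%, 4.69 to 10.8%) and 5 p63 WT barcodes (8.06%, 2.67 to 17.8%), intervals that overlap. The arterial class held 5 p63 KO (1.59%, 0.517 to 3.67%) and 7 p63 WT barcodes (11.3%, 4.66 to 21.9%). These intervals do not overlap, but they cover counting error in 1 library each and not the spread between replicate libraries. The arterial class was 3 p63 KO (0.952%) and 6 p63 WT barcodes (9.68%) after each barcode was thinned at random to 1000 UMIs. No class was taken by 21 p63 KO barcodes and by 0 of 62 p63 WT barcodes, but by 52 and 15 after thinning. Without mixed barcodes the capillary, venous and arterial classes held 202, 21 and 4 of 243 p63 KO barcodes, and 11, 4 and 7 of 22 p63 WT barcodes. The capillary shares were then 83.1% and 50%, further apart than with all barcodes. In p63 WT, mixed barcodes were 39 of 50 capillary, 1 of 5 venous and 0 of 7 arterial ones, so their removal fell unevenly on the classes. In p63 KO they were 63 of 265, 2 of 23 and 1 of 5.

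Venous barcodes were marked by leukocyte-binding genes. Selp (P-selectin) had 96 UMIs in 14 of 23 venous p63 KO barcodes, against 53 in 15 of 265 capillary ones, and 14 UMIs in 3 of 5 venous p63 WT barcodes, against 13 in 3 of 50. Ackr1, a chemokine-binding receptor of venules, had 26 of its 30 p63 KO UMIs and 14 of its 15 p63 WT UMIs in the venous class. Vwf (von Willebrand factor) was found in 13 of 23 p63 KO and 5 of 5 p63 WT venous barcodes. These genes defined the class. Of genes outside the 4 lists, 10 were taken for their excess over the capillary class in the p63 KO library and read in the p63 WT library. These 10 were taken after their values were seen, so the p63 WT reading is a description and not an independent check. In p63 WT, 39 of the 50 capillary barcodes but 1 of the 5 venous ones were mixed. With all barcodes, the rule genes Pecam1, Plvap, Egfl7 and Cdh5 (4.25-fold, 1.82 to 8.89) also stood above the capillary class there. The intervals of Kdr (0.308-fold), Flt1 (1.53-fold) and Emcn (0.727-fold) included 1 with all barcodes. Fabp4, though of the capillary list, stood at 4.54-fold (3.42 to 5.95). It was found in 22 of 23 p63 KO and 5 of 5 p63 WT venous barcodes, so it did not set these classes apart. In p63 KO, 63 of 265 capillary and 2 of 23 venous barcodes were mixed. The ratios are therefore given with and without mixed barcodes. The water channel Aqp1 stood 9.17-fold above the capillary class in p63 KO and 20.2-fold (13.2 to 31.2) in p63 WT, and without mixed barcodes 6.10-fold and 4.68-fold (2.77 to 8.13). Tmem252 stood 5.91-fold above it in p63 KO and 30.5-fold (10.8 to 92.7) in p63 WT, or 4.45-fold and 12.2-fold (2.61 to 115). Tmsb10 reached 4.70-fold in p63 KO and 17.7-fold (9.32 to 33.5) in p63 WT, or 4.28-fold and 6.65-fold (2.68 to 18.7). Without mixed barcodes Cdh5 stood at 1.38-fold (0.537 to 3.31) and Fabp4 at 1.41-fold (1.02 to 1.94) in p63 WT. Pecam1 (0.816-fold), Plvap (0.781-fold) and Egfl7 (0.628-fold) turned below 1 there, with intervals that included 1. Kdr stood at 0.098-fold (0.0024 to 0.598) from 1 venous UMI, Flt1 at 0.467-fold (0.189 to 1.006) and Emcn at 0.334-fold (0.064 to 1.11). The p63 KO ratios without mixed barcodes were 0.432 (0.194 to 0.84) for Kdr, 0.413 (0.285 to 0.58) for Flt1 and 0.942 (0.583 to 1.46) for Emcn. Rasa4, at 14.5-fold (4.16 to 47.8) in p63 WT, and Mgp, a matrix inhibitor of calcification, at 11.6-fold (1.81 to 59.8), had intervals that included 1 without mixed barcodes. Mctp1 was at 0 in the 5 p63 WT venous barcodes, and the p63 WT intervals of Mustn1 and Tspan7 included 1 with all barcodes. Plvap in venous over capillary p63 KO barcodes had a ratio of 0.996 (0.783 to 1.25), or 0.669 (0.521 to 0.849) without mixed barcodes, while Rgcc had 3 UMIs in the 23 venous barcodes against 1054 in the capillary ones.

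Arterial barcodes were marked by Gja4, which encodes a connexin, and the Notch target Hey1. Gja4 was found in 3 of 5 p63 KO and 6 of 7 p63 WT arterial barcodes, and Hey1 in 5 of 5 and 6 of 7. The connexin gene Gja5 had 0 UMIs in the p63 KO and 8 UMIs in the p63 WT arterial barcodes. Sox17, an endothelial transcription factor of the arterial list, had 0 UMIs in the 5 arterial p63 KO barcodes and 126 in the 265 capillary ones, against 17 UMIs in the 7 arterial and 10 in the 50 capillary p63 WT barcodes. Plvap had 2 UMIs in p63 KO and 3 UMIs in p63 WT arterial barcodes, a ratio to the capillary class of 0.0848 (0.0103 to 0.307) and 0.218 (0.0446 to 0.649). Of 10 genes outside the lists taken in the p63 WT library, Mgp was 12.9-fold (8.50 to 19.2), Igfbp4, an IGF-binding protein, 30.3-fold (19.7 to 46.2), Cldn5 23.4-fold (11 to 47.6) and Fn1 (fibronectin) 45.1-fold (12.0 to 169) above the capillary class in the p63 KO library. Without mixed barcodes these p63 KO ratios were 9.48 (5.97 to 14.6), 29.5 (18.5 to 46.8), 15.1 (6.11 to 34.1) and, from 2 arterial UMIs, 14.7 (1.40 to 90.1). The p63 KO intervals of Vim, Tspan7, Cdh13 and Klf2, a factor induced by blood flow, included 1.

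Lymphatic endothelium was nearly missing. A single p63 KO barcode with 2126 UMIs took the lymphatic class, and it held 14 UMIs of Mmrn1, 13 of the chemokine gene Ccl21a, 8 of Lyve1 and 4 of Reln, all of those in the p63 KO endothelial barcodes. It had 1 of the 2 UMIs of Prox1, the main transcription factor of lymphatic identity, and 0 of the 18 UMIs of the receptor gene Flt4. It had 3 rule genes, the fewest that the rule admits, with 0 UMIs of Pecam1, Cdh5, Flt1 and Egfl7. The barcode also held 7 UMIs of the capillary gene Gpihbp1. No p63 WT barcode of 62 took the class (interval 0 to 5.78%). Among the 2093 p63 KO and 1577 p63 WT kept barcodes outside the rule, 0 and 3 had at least 2 lymphatic markers, and 0 in either library had 3.

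**Figure D4:**
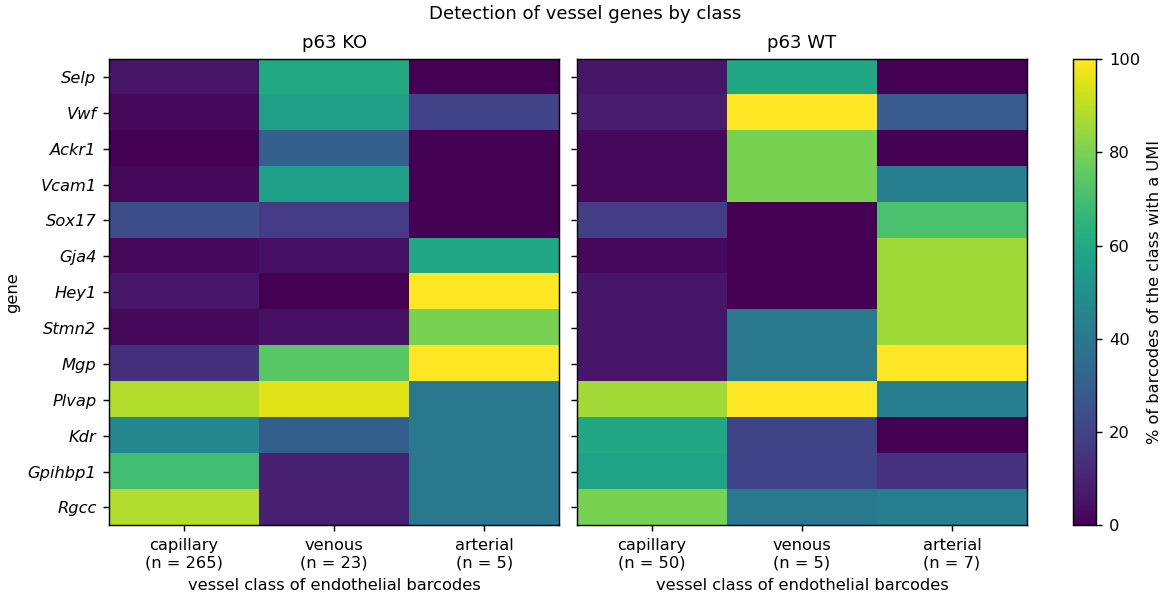
Colour gives the percent of barcodes of a vessel class (columns) with at least 1 UMI of a gene (rows), p63 KO on the left and p63 WT on the right. Selp, Vwf, Ackr1 and Vcam1 are brightest in the venous columns and Gja4, Hey1 and Stmn2 in the arterial columns, which these genes defined; Mgp, which was not used, is found in all 5 p63 KO and all 7 p63 WT arterial barcodes.

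The p63 KO and p63 WT endothelial barcodes were then compared gene by gene. The size rule asked for 50 or more UMIs summed over the libraries and for a ratio of CPM whose whole interval lay beyond 2-fold. Among 2265 genes that met the UMI minimum, 233 (10.3%) were higher and 22 (0.971%) were lower in p63 KO. The split depended on the scaling: it was 92 higher (4.06%) and 42 lower (1.85%) with TMM factors and with DESeq2 size factors, 87 (3.84%) and 44 (1.94%) when mitochondrial, ribosomal, haemoglobin, acinar and granular tubule genes were left out of the total, and 18 (1.39%) and 30 (2.32%) of 1294 genes without mixed barcodes. The median log2 ratio of all measured genes was 0.68 with the total, 0.28 with TMM and 0.07 without mixed barcodes, so ratios are read against these. The same rule called 99 of 1179 genes higher (8.4%) and 67 lower (5.68%) in Ptprc-positive barcodes, and 591 of 9939 higher (5.95%) and 237 lower (2.38%) in other kept barcodes. In all 4 scalings 87 genes were higher and 22 lower, and 14 and 9 of these also passed without mixed barcodes.

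The targeted gene could not be checked in these cells, since Trp63, which basal epithelial cells express, had 1 UMI in the p63 KO and 1 UMI in the p63 WT endothelial barcodes. In the other kept barcodes it had 19 and 139 UMIs, or 3.13 and 18.5 CPM. Fst, which encodes the activin-binding protein follistatin named in the study's title, had 3 and 1 UMIs in endothelial barcodes.

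Cyp26b1 stood furthest apart. It encodes an enzyme that breaks down retinoic acid (ENSMUSG00000063415; GRCm38 chromosome 6, 84571414 to 84593908, minus strand). It had 441 UMIs in 190 of 315 p63 KO barcodes, with at most 8 in 1 barcode, against 2 UMIs in 2 of 62 p63 WT barcodes. The levels were 599 CPM (545 to 658) and 6.36 CPM (0.770 to 23), a ratio of 94.2 (25.9 to 781). It was thus spread over most p63 KO barcodes and nearly missing from the p63 WT ones. At 1000 UMIs per barcode it was found in 45.7% (40.1 to 51.4%) of p63 KO and 1.61% (0.0408 to 8.66%) of p63 WT barcodes. Without mixed barcodes it had 348 and 1 UMIs, a ratio of 53.1 (9.46 to 2101). Outside the endothelial barcodes it was rare, with 45 UMIs in 2093 p63 KO and 0 in 1577 p63 WT barcodes, and with 3 and 0 UMIs in Ptprc-positive barcodes. Within p63 KO it was present in 169 of 265 capillary and 13 of 23 venous barcodes, and in 0 of 5 arterial barcodes and the lymphatic one. It accompanied 79 of 101 barcodes with Car4 (78.2%, 68.9 to 85.8%) and 111 of 214 without (51.9%, 45.0 to 58.7%), at unmatched depth.

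Another gene of retinoid handling went the other way. Rbp7, a cellular retinol-binding protein (GRCm38 chromosome 4, 149449687 to 149454978, minus strand), had 50 UMIs in 36 p63 KO barcodes and 94 UMIs in 37 p63 WT barcodes, a ratio of 0.227 (0.158 to 0.324). At 1000 UMIs per barcode it was found in 7.94% (5.20 to 11.5%) of p63 KO and 30.6% (19.6 to 43.7%) of p63 WT barcodes. Within the capillary class it was found in 34 of 265 p63 KO and 32 of 50 p63 WT barcodes, with a ratio of 0.265 (0.182 to 0.384), and without mixed barcodes the ratio was 0.157 (0.0963 to 0.255). It had 1 UMI in other p63 KO and 69 UMIs in other p63 WT barcodes, where it was lower past the size rule too.

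A further 5 named genes among the 14 did not pass the rule in both Ptprc-positive and other kept barcodes. Ttll7, a tubulin-modifying enzyme, had 64 UMIs in 50 p63 KO barcodes and 1 UMI in p63 WT. Without mixed barcodes it had 54 and 0 UMIs, and in other kept barcodes its log2 ratio was 0.11. Fmo2, a flavin-containing monooxygenase, had 257 UMIs in 148 p63 KO barcodes and 13 UMIs in 11 p63 WT barcodes, a ratio of 8.45 (4.85 to 16.1), or 5.31 (2.40 to 14.6) without mixed barcodes. It was present in 18 of 23 venous and 120 of 265 capillary p63 KO barcodes. In other kept barcodes Fmo2 was higher past the rule as well, with 505 UMIs in p63 KO and 180 in p63 WT. Sgk1, a kinase induced by glucocorticoids, had 689 UMIs in 239 p63 KO barcodes and 78 UMIs in 42 p63 WT barcodes. The ratio was 3.78 (2.98 to 4.84). As a log2 ratio it was 1.875, against 0.64 in Ptprc-positive and 0.28 in other kept barcodes. Icam1, which binds leukocyte integrins, had 336 UMIs in p63 KO and 31 UMIs in p63 WT, a ratio of 4.63 (3.20 to 6.93). It was present in 107 of 315 p63 KO and 21 of 62 p63 WT barcodes, with at most 24 and 4 UMIs in 1 barcode. At 1000 UMIs per barcode it was found in 24.4% (19.8 to 29.6%) of p63 KO and 9.68% (3.63 to 19.9%) of p63 WT barcodes. In Ptprc-positive barcodes Icam1 was higher past the rule as well, at 1007 CPM in p63 KO and 92.0 CPM in p63 WT. Fkbp5, which encodes a co-chaperone of the glucocorticoid receptor, had 101 UMIs in 84 p63 KO barcodes and 5 UMIs in 5 p63 WT barcodes, and was higher in other kept barcodes too.

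The metallothionein genes Mt1 and Mt2 were higher in endothelial, Ptprc-positive and other kept barcodes. Mt1, which binds zinc and copper, had 1943 UMIs in 242 p63 KO and 114 UMIs in 31 p63 WT endothelial barcodes, a ratio of 7.29 (6.03 to 8.88), or 2.85 (2.15 to 3.87) without mixed barcodes. For Mt2 the UMIs were 809 in p63 KO and 36 in p63 WT, and the ratio was 9.61 (6.88 to 13.8), or 3.94 without mixed barcodes. Their log2 ratios were 2.83 and 3.16 in endothelial, 1.29 and 1.86 in Ptprc-positive and 2.08 and 2.26 in other kept barcodes. All were past the rule. Without mixed barcodes the endothelial ratios lay below those of other kept barcodes, from which mixed barcodes had not been removed. Cirbp, a cold-inducible RNA-binding protein, had 285 and 14 UMIs and was likewise past the rule in all 3 sets. Mt1 was seen in 213 of 315 p63 KO (67.6%) and 15 of 62 p63 WT barcodes (24.2%) at 1000 UMIs.

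**Figure D5:**
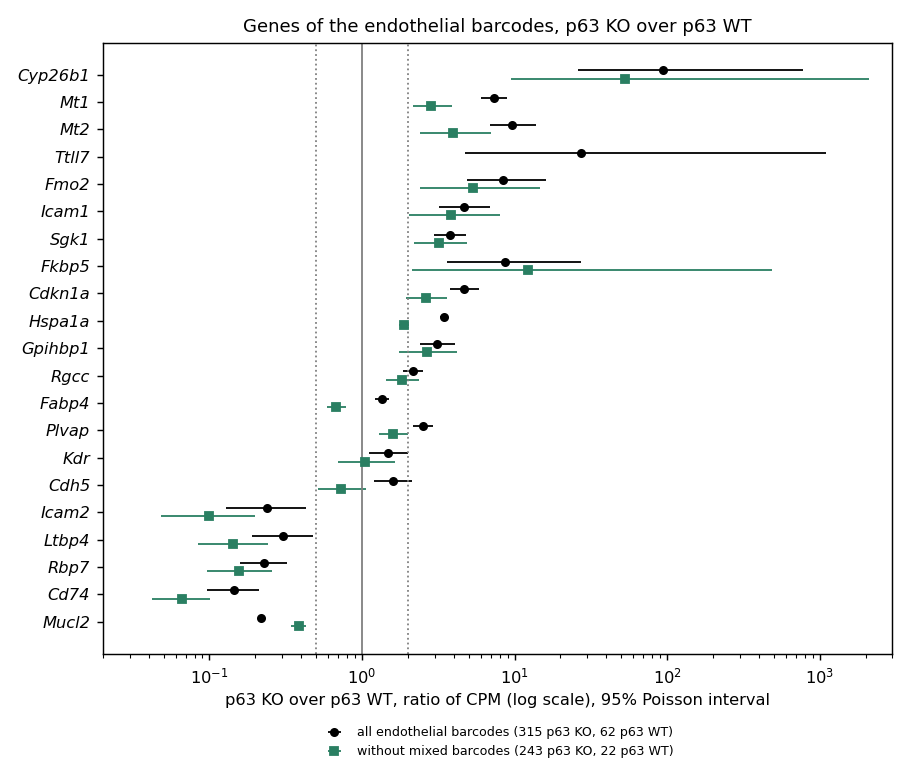
Ratio of CPM in p63 KO over p63 WT endothelial barcodes (x axis, log scale, with 95% Poisson intervals) for 21 genes, over all endothelial barcodes (circles) and without mixed barcodes (squares); the solid line marks equal levels and dotted lines 2-fold. Cyp26b1 stays at 53.1 without mixed barcodes, Fabp4 lies above the solid line as a circle and below it as a square, Ttll7 has no square because it was at 0 in the p63 WT barcodes left.

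Among the lower genes, Icam2, an adhesion molecule that resting endothelium expresses, had 19 UMIs in 19 p63 KO barcodes and 34 UMIs in 20 p63 WT barcodes, a ratio of 0.239 (0.129 to 0.431). At 1000 UMIs per barcode it was found in 3.81% (1.98 to 6.56%) of p63 KO and 22.6% (12.9 to 35.0%) of p63 WT barcodes. In the arterial class, which held 5 p63 KO and 7 p63 WT barcodes, Icam2 had 1 and 14 UMIs. Within the capillary class it stood at 25.4 CPM in p63 KO and 64.6 CPM in p63 WT, a ratio of 0.393 (0.188 to 0.817) that did not lie wholly beyond 2-fold. Without mixed barcodes it had 15 and 23 UMIs, too few for the rule, and the ratio was 0.0994 (0.0482 to 0.199). Those 23 included all 14 p63 WT arterial UMIs, because 0 of the 7 arterial p63 WT barcodes were mixed. Ltbp4, which holds latent TGF-beta in the matrix, had 34 UMIs in p63 KO and 48 UMIs in p63 WT barcodes. The ratio was 0.303 (0.189 to 0.480), and Ltbp4 was found in 19 of 265 p63 KO and 19 of 50 p63 WT capillary barcodes, where its ratio was 0.442 (0.237 to 0.825). In the arterial class Ltbp4 was found in 3 of 5 p63 KO and 7 of 7 p63 WT barcodes. Cd74, the invariant chain of MHC class II, had 36 UMIs in 10 p63 KO and 107 UMIs in 17 p63 WT barcodes, but 70 of the p63 WT UMIs lay in 1 barcode. Smgc, Mucl2, Car6, Prol1, Aqp5 and the secretoglobins Scgb2b26 and Scgb2b27, all of acinar secretion, and the haemoglobins were lower in p63 KO, as the shares of mixed barcodes above were. Except for the haemoglobins, they were lower past the rule in other kept barcodes as well, and Aqp5 and Alas2 had 0 UMIs in both libraries without mixed barcodes.

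Gene lists were set against all genes. Of all genes with at least 50 UMIs, 10.3% were higher and 0.971% lower, or 1.39% and 2.32% without mixed barcodes. The median log2 ratio of all genes with at least 10 UMIs was 0.49, or -0.03 without mixed barcodes. List medians below likewise cover list genes with at least 10 UMIs, while the counts past the rule are out of those with at least 50. Of 28 pan-endothelial genes, 26 had 50 UMIs; of these 3 were higher (Adgrl4, Adgrf5 and Emp1), a share near that of all genes, 1 was lower (Icam2) and 22 did not pass the rule. The list median was 0.65, but -0.42 without mixed barcodes, where none passed. Of the capillary list, 3 of 10 genes were higher (Gpihbp1, Car4 and Sgk1) and 0 lower, with a median of 1.09. Without mixed barcodes 1 passed (Sgk1) and the median was 0.61. Gpihbp1 had a ratio of 3.1 (2.40 to 4.06), and 2.65 (1.76 to 4.18) without mixed barcodes. Fabp4 had a ratio of 1.35 (1.21 to 1.51), and of 0.680 (0.592 to 0.782) without mixed barcodes, so its direction turned.

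The venous list had a median of 1.04 with 1 of 5 genes higher (Lrg1), but of -0.35 with none past the rule without mixed barcodes. The arterial list had a median of 0.04 over 12 genes, and 0 of the 5 with 50 UMIs passed the rule. Over those 5 genes alone the median was 0.39. Without mixed barcodes the list median was -1.21, with 1 gene lower. Of the 7 p63 WT arterial barcodes 0 were mixed, so 31.8% of the p63 WT barcodes left were arterial, against 1.65% in p63 KO. The arterial list defined that class. The part of class composition in this and the other list medians without mixed barcodes was not tested. With all barcodes no gene passed in 6 further lists, whose medians are given with all and then without mixed barcodes. They were 0.60 and -0.02 for VEGF and angiopoietin receptors, 0.82 and 0.06 for Notch genes and 0.47 and 0.36 for haemostasis. With all barcodes, 9, 11 and 8 genes of these lists had 10 UMIs, and 4, 3 and 3 had 50. Medians changed sign for junctions (0.39 and -0.45), basement membrane (0.24 and -0.59) and caveolae and fenestrae (0.30 and -0.87). With all barcodes, 14, 14 and 10 genes of these had 10 UMIs, and 9, 5 and 7 had 50. In each of the last 2 lists 1 gene was lower without mixed barcodes. With the reduced total the medians of the arterial (-0.36), caveolae and fenestrae (-0.15) and basement membrane (-0.09) lists also lay below 0. Among BMP, TGF-beta and activin genes 1 of 12 was higher (Tgfbr3, a TGF-beta co-receptor) and 1 lower (Ltbp4), with a median of 0.61, but of -0.32 without mixed barcodes, where Tgfbr3 did not pass. Of the lipid uptake list 2 of 6 genes were higher (Gpihbp1 and Scarb1, a lipoprotein receptor) with a median of 1.23, and 0 of them without mixed barcodes, with a median of 0.61. Of the shear stress list 1 of 6 was higher (Klf4) with a median of 0.87, but Klf4 did not pass in all scalings, and without mixed barcodes none passed. No sprouting gene had 50 UMIs.

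Of 11 glucocorticoid and nutrient stress genes with 50 UMIs, 7 were higher (Fkbp5, Txnip, Per1, Cdkn1a, Mt1, Mt2 and Lcn2) and 0 lower, 6 of them in all scalings. The median of 12 genes was 2.12, or 1.64 without mixed barcodes, where 3 passed. The same list had a median of 0.24 in Ptprc-positive and 1.60 in other kept barcodes. Cdkn1a, which encodes the cell cycle inhibitor p21, had 990 UMIs in 271 p63 KO and 91 UMIs in 34 p63 WT barcodes, a ratio of 4.65 (3.75 to 5.83), or 2.61 (1.93 to 3.61) without mixed barcodes. Of 23 immediate early and heat shock genes, 13 were higher, 8 in all scalings and 0 without mixed barcodes, and the median was 1.40, or 0.46 without them. Hspa1a, an inducible heat shock protein, had 10640 UMIs in 291 p63 KO and 1329 UMIs in 59 p63 WT barcodes, a ratio of 3.42 (3.23 to 3.63), or 1.88 (1.74 to 2.04) without mixed barcodes. Of leukocyte adhesion and chemokine genes 4 of 9 were higher (Icam1, Cxcl1, Cxcl2 and Ackr3) and 1 lower (Icam2), with a median of 1.08, or 0.14 without mixed barcodes. Of the 4, Icam1 alone passed in all scalings and without mixed barcodes, and 5 genes of the list were higher in Ptprc-positive barcodes. MHC genes had a median of 0.22 with 1 of 10 lower (Cd74), and interferon response genes 0.14 with 1 of 10 higher (Irf7, which did not pass in all scalings). These medians were -0.24 and -0.30 with the reduced total, and -1.11 and -0.40 without mixed barcodes. The single cell cycle gene with 50 UMIs, of 18, did not pass the rule.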

How the data were processed

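The deposited tables, 1 per library, hold UMI counts of each gene in each barcode as whole numbers that had not been normalized, from libraries made with the 10x Chromium Single Cell 3' v2 kit per the labels' protocols. Per the submitters' processing notes, the tools were bcl2fastq 2.19.1, Cell Ranger 2.1.0 and Seurat 3.1.2 and the build was mm10; which step each served is not stated there. The sources used here do not give the filter that left the deposited barcodes. Of 27998 Ensembl genes, 27645 received a symbol from GENCODE M21 (GRCm38). No barcode was tested for doublets by a caller, and no correction for free RNA was made.

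UMIs were summed over endothelial barcodes per library with Python 3.11.15, scipy 1.17.1 and pandas 2.3.3. For log2 ratios 10 CPM were added to each level. edgeR 4.0.16 (TMM) and DESeq2 1.42.0 were used for scaling factors only. Ptprc-positive barcodes had under 3 rule genes (143 in p63 KO, 73 in p63 WT). Other kept barcodes were all those outside the rule, the Ptprc-positive ones included. Thinning drew 1000 UMIs per barcode with seed 1. The interval calculation was tested on simulated Poisson counts of summed genes. These leave out the clumping of UMIs in single barcodes, so the calculation alone was checked. All ratios compare 2 libraries, 1 of each genotype, and p-values were not computed.

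The genes named were those past the size rule that ranked in the top 10 or bottom 10 by log2 ratio among genes at least 2 times higher in endothelial than in other kept barcodes, the 5 highest and lowest of the rest, list members past the rule and the 4 most abundant of each list, the rule genes, Trp63 and Fst. Mitochondrial, ribosomal, immunoglobulin and sex-linked genes and unnamed models were left out of the ranking; haemoglobins were read from their list. Genes chosen by class excess (Aqp1, Mgp and the like) were taken after their values were seen. The members and lists were chosen with earlier results of these data known.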

Additional observations from a re-analysis of the deposited data

Results flagged for a closer look

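Ccn1, a secreted matrix protein and immediate early gene, was flagged because its difference between the libraries ran opposite ways in 2 kinds of barcode. It was higher past the size rule in p63 KO endothelial barcodes, at a log2 ratio of 1.40, with 1015 UMIs in p63 KO and 162 in p63 WT. In Ptprc-positive barcodes it was lower past the rule, at -3.28, with 7 UMIs in p63 KO and 107 in p63 WT, and in other kept barcodes it stood at -0.08. The difference between the 2 kinds of barcode was not tested. Mixed barcodes were not removed from the Ptprc-positive set. There the luminal epithelial and acinar lists also had medians below 0, at -1.62 and -3.18, each with 4 genes lower past the rule. Without mixed barcodes the endothelial ratio was 1.48 (1.17 to 1.91) and did not pass the rule.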

How the results depend on the processing

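No paired analysis was possible because there was 1 library per genotype, and no replicate could be left out. The alternatives without mixed barcodes were chosen after seeing the data. The endothelial share, 13.0% in p63 KO and 3.73% in p63 WT, was 10.7% in p63 KO with 4 rule genes, 7.24% with no filter and 18.7% with the stricter filter of 500 genes and 10% mitochondrial UMIs. It was 10.5% and 2.11% when thinned to 1000 UMIs, 10.4% and 2.29% without the Epcam, Krt8 and Krt18 barcodes, and 10.0% and 1.32% without either kind of mixed barcode. In p63 WT it was 2.11% without haemoglobin- and secretory-rich barcodes and 5.17% with the barcodes set apart kept in.

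The 233 genes higher in p63 KO were 99 with 4 rule genes, 20 when thinned and chosen again, 33 when only thinned, 25 without haemoglobin- and secretory-rich barcodes, 83 without Epcam, Krt8 and Krt18 barcodes, 18 without both, 92 with TMM, 92 with DESeq2 factors and 87 with the reduced total. The 22 lower genes were 13 when thinned and chosen again, 38 without haemoglobin- and secretory-rich barcodes, 42 with TMM, 42 with DESeq2 factors, 44 with the reduced total, 38 with a minimum of 20 UMIs and 59 with none. Thinning by construction left fewer UMIs and so fewer genes to measure; otherwise the cause was not tested.

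Without haemoglobin- and secretory-rich barcodes the list medians were -0.33 (pan-endothelial), 0.36 (capillary), 0.0058 (venous) and -1.11 (arterial); without either kind they were -0.42, 0.61, -0.35 and -1.21, and the capillary median was 0.63 with the reduced total. The capillary share was 76.2% in p63 KO and 54.8% in p63 WT when thinned. Without mixed barcodes the p63 WT shares were 50% capillary, 18.2% venous and 31.8% arterial. The p63 KO shares were then 83.1%, 8.64% and 1.65%. Of 68 named genes past the size rule, 65 kept their direction in all 15 alternatives, and 8 passed the rule in all of them: Cyp26b1, Mt1, Mt2, Cirbp, Rbp7, Hba-a2, Mucl2 and Scgb2b27. Cldn4 turned to -0.92 when thinned and chosen again, and Prol1 and Aqp5 to 0.11 and 0.22 without haemoglobin- and secretory-rich barcodes. The 62 p63 WT barcodes limit every comparison.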
